A study of Mus musculus with 48 samples.

Results

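Chd4 and 9 further genes for subunits of NuRD, the nucleosome remodelling and deacetylase complex, were followed through the nascent RNA of mouse embryonic stem cells. The 10 genes were Chd4, Hdac1, Hdac2, Mta1, Mta2, Mta3, Mbd3, Rbbp4, Gatad2a and Gatad2b, taken by name from a table of 55376 genes, and all 10 were found. There were 8 libraries in 4 groups of 2, all from TCF2.2 cells, a mouse embryonic stem cell line, grown in 2i medium. BRM014, an inhibitor of the SWI/SNF remodelling ATPases, was given at 10 µM for 3 h and was compared with DMSO for 3 h. The other cells carried a lentiviral shRNA directed at Chd4 or a scrambled shRNA and were harvested after 24 h in puromycin at 1.5 µg/mL. All cells took up 4-thiouridine at 500 µM for 5 min, so that RNA made in that interval could be isolated, and ERCC spike-in RNAs were added per number of cells. The libraries of a group were numbered r1 and r2 for BRM014 and DMSO, r1 and r4 for the Chd4 shRNA and r1 and r3 for the scrambled shRNA. The labels do not say whether they came from separate cultures, so p-values measure the spread between libraries, which may be technical.

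NuRD joins an ATPase that moves nucleosomes with histone deacetylases in one assembly. CHD4 is the ATPase in most forms of the complex, HDAC1 and HDAC2 remove acetyl groups, the MTA proteins hold the deacetylases and the histone-binding RBBP proteins together, MBD3 connects this core with the rest, and the GATAD2 proteins bridge MBD3 to CHD4. In embryonic stem cells the complex restrains genes of the pluripotent state and is needed for cells to leave that state.

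The libraries held between 6982354 gene counts (Chd4 shRNA r4) and 17128981 (DMSO r1). The 1434 genes for olfactory and vomeronasal receptors, which embryonic stem cells do not use, gave the background. Per kb of exon they had 6.99 ± 0.303 counts (SD, n = 2) under the Chd4 shRNA label, 1.58 ± 0.361 under the scrambled one, 2.15 ± 0.696 after BRM014 and 2.65 ± 0.0208 after DMSO. All tests were therefore made on 8017 genes with a mean count at least 10-fold above background, and every value is relative to those expressed genes. Of the members, 9 were in this set, at 21.4-fold (Mta3) to 61.6-fold (Hdac1) above background. Gatad2b, at 8.17-fold, was not, and was fitted among 15464 genes at least 3-fold above background, on the scale of the expressed genes. All 10 of 10 embryonic stem cell markers were over the 10-fold level, and 0 of the 8 fibroblast, 6 endoderm, 6 mesoderm, 6 ectoderm and 6 trophoblast markers were. The stem cell markers summed to 11202 and 11743 counts under the Chd4 shRNA label and to 25979 to 56877 in the others. These sums are not scaled for library size. Relative sizes from the expressed genes were 0.57 and 0.56 under the Chd4 shRNA label and 0.81 to 1.64 in the others, so part of the gap is depth.

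The promoters of Chd4 and Gatad2a, which were higher in the libraries labelled Chd4 shRNA, and of Hdac2 and Mta2, which were lower there, are shown because these genes carry the main contrast. Each is the 250 bases before the start of transcription, 5′ to 3′ on the gene's strand, from RefSeq (GRCm38.p6), with matches to GGGCGG (the GC box), CCAAT (the box known to be bound by NF-Y), CCGGAA (the core letters of ETS sites) and the letters TGCGCA on either strand in capitals. RefSeq promoters were found for 8 of the 10 genes, and not for Hdac1 and Mta3.
Chd4: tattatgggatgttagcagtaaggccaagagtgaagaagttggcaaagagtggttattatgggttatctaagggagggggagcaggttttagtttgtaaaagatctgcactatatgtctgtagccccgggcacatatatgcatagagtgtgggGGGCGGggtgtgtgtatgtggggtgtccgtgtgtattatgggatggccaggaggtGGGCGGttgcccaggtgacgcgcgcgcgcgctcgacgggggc
Gatad2a: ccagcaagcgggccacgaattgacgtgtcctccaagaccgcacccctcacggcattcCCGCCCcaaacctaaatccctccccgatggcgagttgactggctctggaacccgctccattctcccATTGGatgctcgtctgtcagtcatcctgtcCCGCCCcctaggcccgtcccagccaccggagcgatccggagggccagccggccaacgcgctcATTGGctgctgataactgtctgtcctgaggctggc
Hdac2: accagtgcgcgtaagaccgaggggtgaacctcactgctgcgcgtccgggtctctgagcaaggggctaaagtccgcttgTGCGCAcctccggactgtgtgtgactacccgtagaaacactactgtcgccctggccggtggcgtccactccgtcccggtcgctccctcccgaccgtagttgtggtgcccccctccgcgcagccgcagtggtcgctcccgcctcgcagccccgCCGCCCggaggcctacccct
Mta2: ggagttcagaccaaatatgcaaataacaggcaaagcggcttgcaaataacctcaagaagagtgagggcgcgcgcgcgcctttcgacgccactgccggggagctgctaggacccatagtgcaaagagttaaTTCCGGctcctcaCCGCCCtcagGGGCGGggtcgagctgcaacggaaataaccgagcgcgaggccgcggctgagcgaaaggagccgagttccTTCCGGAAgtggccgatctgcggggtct
These stretches lie at chr6:125095731-125095980 (Chd4, plus strand), chr8:69996385-69996634 (Gatad2a, minus strand), chr10:36974294-36974543 (Hdac2, plus strand) and chr19:8941670-8941919 (Mta2, plus strand). GGGCGG was found in 8 of the 8 members' promoters and in 32.7% of 32851 mouse promoters of the same length. The members' promoters held 54% (Chd4) to 80.8% (Mta1) G and C, against a median of 52.4% over all promoters. No promoters of like composition were compared, so the GC box cannot be called a trait of these genes. CCAAT was found in 4 of 8 (33.8% of all promoters), among them Gatad2a with 2 matches. CCGGAA was found in 1 of 8 (12%), Mta2, which held 3 matches, 2 of them overlapping on opposite strands in TTCCGGAA. RefSeq starts Mta2 45 bases downstream of the gene start given with the counts, and TTCCGGAA lies within those 45 bases. TGCGCA was found in 3 of 8 (6.43%), among them Hdac2. CACGTG was found in 1 of 8 (6.02%), Rbbp4. The TATA box letters TATAAA were found in 1 of 8 (12.4%), Mbd3. TGACGTCA was found in 0 of 8 (1.55%). Chd4 and Gatad2a had 12 and 18 CpG dinucleotides in these 250 bases and Hdac2 and Mta2 had 27 and 24, against a median of 6 over all promoters. Of the other members, Gatad2b had 13, Mbd3 14, Rbbp4 30 and Mta1 39. Mbd3, called lower under the Chd4 shRNA label, was below Gatad2a, so these counts did not separate higher from lower members. All 4 printed promoters share the GC box, and none of the letters searched was in both promoters of one pair and in neither of the other. A match describes the letters and not a bound site.

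Levels were compared between genes as counts per kb of exon, with each library brought to the same size by the TMM factors of the expressed genes (the unit of the plot of levels, in CPM per kb). With DMSO, Hdac1 (chr4:129516104-129542713, minus strand, mm10) had the highest level of the 10, 16.4 and 18.8. Mta2, Rbbp4, Hdac2 and Mbd3 followed at mean levels of 12.1, 12, 11.8 and 10.4, and the ranges of neighbours in this order overlapped. Gatad2a at 8.66, Mta1 at 6.89, Chd4 at 6.55 and Mta3 at 6.44 came next, with overlap between Mta1 and Chd4 and between Chd4 and Mta3. Gatad2b was lowest, at 1.69 and 2.07. In the libraries labelled Chd4 shRNA the order was another one. Gatad2a was first at 17.6 and 17.7, then Hdac1 at 16.1 and 15.7, Chd4 came next at 14.7 and 15.7, and Hdac2 was ninth at 5.27 and 6.37. Gatad2b was last in all 4 groups, and in this group its range of 5.22 to 5.47 overlapped that of Hdac2.

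**Figure D1:**
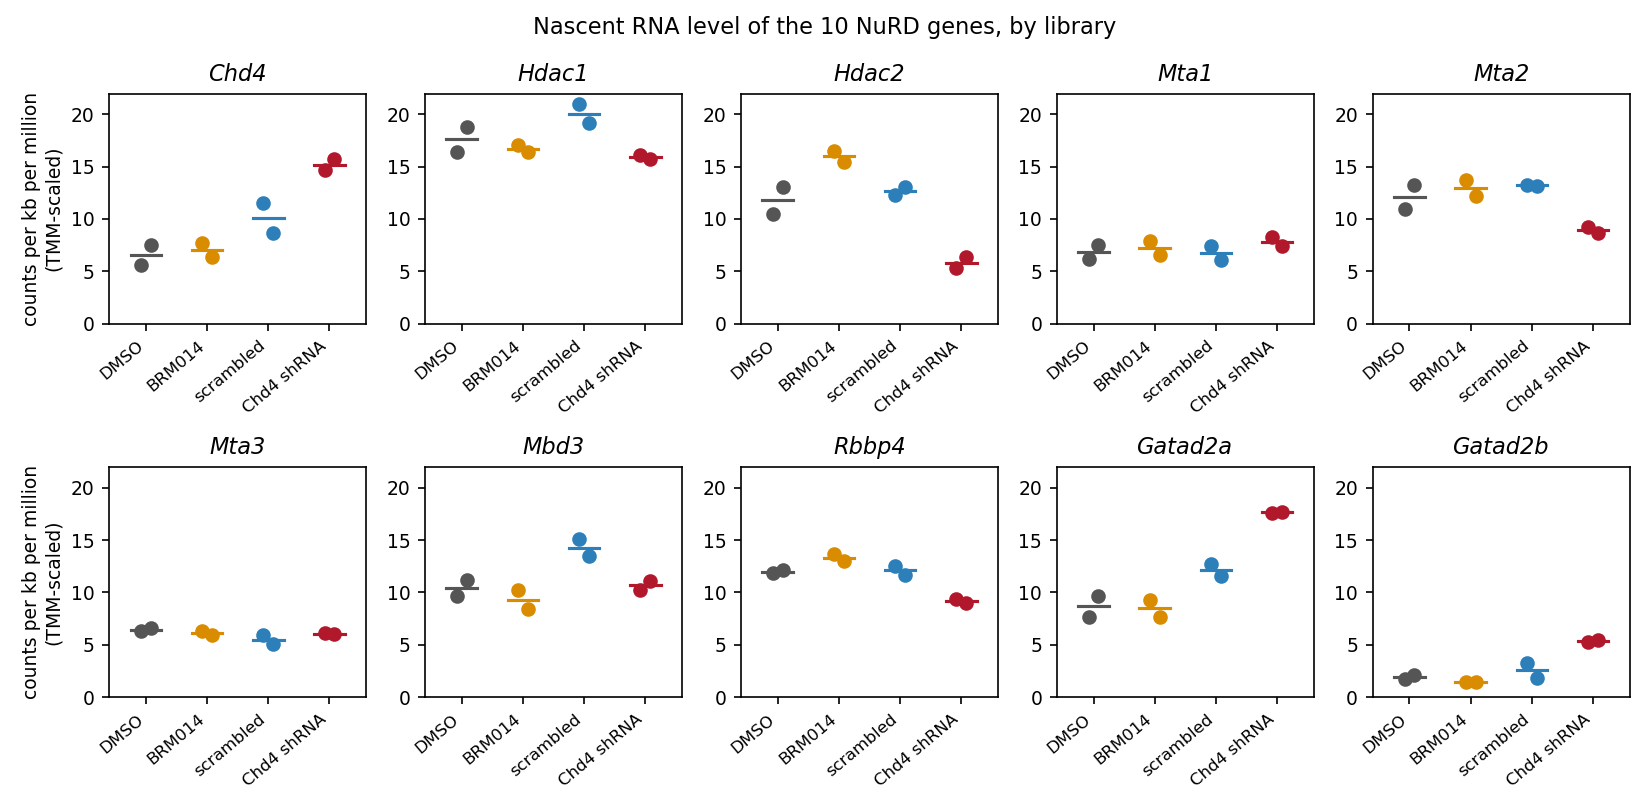
Level of each gene (CPM per kb of exon, scaled by the expressed genes, linear axis from 0) in the 8 libraries. Points are libraries and bars are the means of 2. Hdac2 in the libraries labelled Chd4 shRNA (5.27 and 6.37) lies under all 6 other libraries, while Gatad2a (17.6 and 17.7) lies above them.

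The gene targeted by the shRNA was examined first. Chd4 (chr6:125095981-125130591, plus strand) was counted 730 and 760 times under the Chd4 shRNA label and 806 and 618 times in the scrambled libraries. As levels these were 14.7 and 15.7 against 11.5 and 8.70, so both labelled libraries were higher than both scrambled ones. The log2 fold change was 0.59 ± 0.16 (SE), or 1.50-fold (edgeR adjusted p = 0.00614). The nascent RNA of the targeted gene was thus not lower on the scale of the expressed genes. Nascent RNA measures synthesis, and the amounts of Chd4 mRNA and protein were not measured in these libraries. The knockdown itself could therefore not be checked here, and the value does not speak against the label. Without scrambled r3 the call was lost (0.40, edgeR adjusted p = 0.11), as it was among genes at least 3-fold above background (0.22, adjusted p = 0.24), and scaled by all tested genes, background included, the direction turned to -0.76. That scaling moved the median expressed gene itself by -1.34. With the background subtracted in proportion to exon length the value was 0.72 (edgeR adjusted p = 0.00111).

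Against the scrambled shRNA, members changed in both directions in the libraries labelled Chd4 shRNA. Of the 9 expressed members, 2 were higher (Chd4 and Gatad2a) and 4 lower (Hdac2, Mta2, Mbd3 and Rbbp4), and 3 did not pass. Of all 8017 expressed genes 20.4% were higher and 20.2% lower, so 2 of 9 higher is near the background. Some of these calls were not kept when a library was left out, in fits whose share of all genes called is not given here. Without Chd4 shRNA r1, Chd4 shRNA r4 or scrambled r1, Rbbp4 was at -0.44, -0.37 and -0.35. Mbd3 was at -0.36, -0.48 and -0.34. Without scrambled r3, Chd4 was at 0.40 and Gatad2a at 0.47. The median log2 fold change of the members was -0.33, against 0.005 for all expressed genes. Where ERCC totals after TMM set the scale, 0 members were called in either direction. On that scale the relative sizes of DMSO r1 and r2 were 2.36 and 1.14, against 1.50 and 1.63 from the expressed genes. Libraries of 1 group thus lay further apart, and a missing call there does not show that a gene was unchanged. With plain ERCC sums 3 were higher and 0 lower, and scaled by all tested genes 0 were higher and 9 lower. The median expressed gene itself stood at 0.18 with ERCC totals after TMM, 0.59 with plain sums and -1.34 with all tested genes. The shares of all genes called on these scales are not given here, so these counts describe the scale as much as the members.

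Hdac2 (chr10:36974544-37001889, plus strand), a catalytic deacetylase, was counted 146 and 172 times under the Chd4 shRNA label and 480 and 516 in the scrambled ones. Its levels were 5.27 and 6.37 against 12.3 and 13.0, with no overlap. Hdac2 fell by 1.12 on the log2 scale (SE 0.15, 95% interval -1.44 to -0.80, 0.459-fold, edgeR adjusted p = 1.39e-05), the largest decrease among the members. Background made up 19.8% of its count in the labelled libraries and 1.41% in the scrambled ones, and with background subtracted the log2 fold change was -1.19. Hdac2 kept its call without each of the 4 libraries of the comparison in turn and lost it on both ERCC scales (-0.94 after TMM, -0.51 with plain sums).

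Hdac1, the paralog that can take the place of Hdac2 in the complex, had 344 and 327 counts against 629 and 585. As levels these were 16.1 and 15.7 against 21.0 and 19.2, which do not overlap. The log2 fold change of -0.33 ± 0.13 (SE) did not pass (edgeR adjusted p = 0.052). In the fit of the 4 libraries alone it did (edgeR adjusted p = 0.037), and with background subtracted it was -0.20.

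The scaffold genes differed among themselves. Mta2 (chr19:8941875-8952303, plus strand), which tethers the deacetylases, had 233 and 214 counts in the labelled libraries and 472 and 478 in the scrambled ones. Its levels were 9.20 and 8.67 against 13.2 and 13.2. Mta2 fell by 0.56 on the log2 scale (SE 0.14, edgeR adjusted p = 0.00369), and kept its call without each of the 4 libraries in turn. With plain ERCC sums it was at 0.02. Mta1 had levels of 8.27 and 7.37 against 7.40 and 6.11, which overlap at Chd4 shRNA r4 and scrambled r1, and a log2 fold change of 0.21 ± 0.16 (SE, edgeR adjusted p = 0.31). Mta3 had 6.13 and 6.01 against 5.94 and 5.05, a log2 fold change of 0.15 ± 0.14 (SE, edgeR adjusted p = 0.43). Of the 3 scaffold paralogs Mta2 was the one called. Mta1 and Mta3 were lower too where all tested genes set the scale (-1.14 and -1.21). On that scale the median expressed gene itself stood at -1.34, below both.

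Rbbp4 (chr4:129307100-129335370, minus strand), a histone chaperone subunit shared with many chromatin complexes, had levels of 9.42 and 8.97 against 12.6 and 11.7. It fell by 0.40 on the log2 scale (SE 0.13, edgeR adjusted p = 0.0176). Rbbp4 and Hdac1 lie on the same strand of chromosome 4, 180.7 kb apart. Mbd3 (chr10:80392539-80399550, minus strand), which links the deacetylase core to the remodeller, had 10.2 and 11.1 against 15.1 and 13.5. It fell by 0.42 on the log2 scale against the scrambled shRNA (SE 0.15, edgeR adjusted p = 0.0334). The levels of Mbd3 with DMSO, 9.65 and 11.2, overlapped those under the Chd4 shRNA label. With plain ERCC sums Rbbp4 and Mbd3 both turned to above 0, at 0.19 (Rbbp4) and 0.18 (Mbd3). Each lost its call without Chd4 shRNA r1, without Chd4 shRNA r4 and without scrambled r1. EdgeR adjusted p without these libraries were 0.07, 0.13 and 0.10 for Rbbp4 and 0.19, 0.077 and 0.17 for Mbd3. DESeq2 did not call Mbd3 (adjusted p = 0.079), and with background subtracted edgeR did not either (-0.34, adjusted p = 0.10).

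The bridging genes moved the other way. Gatad2a (chr8:69907076-69996384, minus strand) had 610 and 598 counts against 621 and 571, which is 17.6 and 17.7 against 12.8 and 11.5 as levels. Its log2 fold change was 0.54 ± 0.14 (SE, 1.46-fold, edgeR adjusted p = 0.00478), and 0.69 with background subtracted. Without scrambled r3 it was 0.47 and no longer called (edgeR adjusted p = 0.051), among genes at least 3-fold above background it was 0.17 (adjusted p = 0.34), and scaled by all tested genes it was -0.81. Gatad2b (chr3:90293178-90363407, plus strand) had 370 and 378 counts against 324 and 189, or levels of 5.22 and 5.47 against 3.25 and 1.86. The log2 fold change was 1.07 ± 0.18 (SE, edgeR adjusted p = 1.71e-05), in a fit in which 43.7% of 15464 genes were higher, so the call says little about Gatad2b in particular. Background made up 21.4% of its count in the labelled libraries and 7.89% in the scrambled ones. The scrambled libraries differed from each other at this gene, and the value was 1.52 without scrambled r1 and 0.72 without scrambled r3. Scaled by all tested genes it was -0.29. Gatad2b overlaps 4930537H20Rik, Gm45354 and Gm45477, with mean counts of 32.6, 20.5 and 64.9 against 312.6, and the strand setting of the counting is not given in the sources used here.

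**Figure D2:**
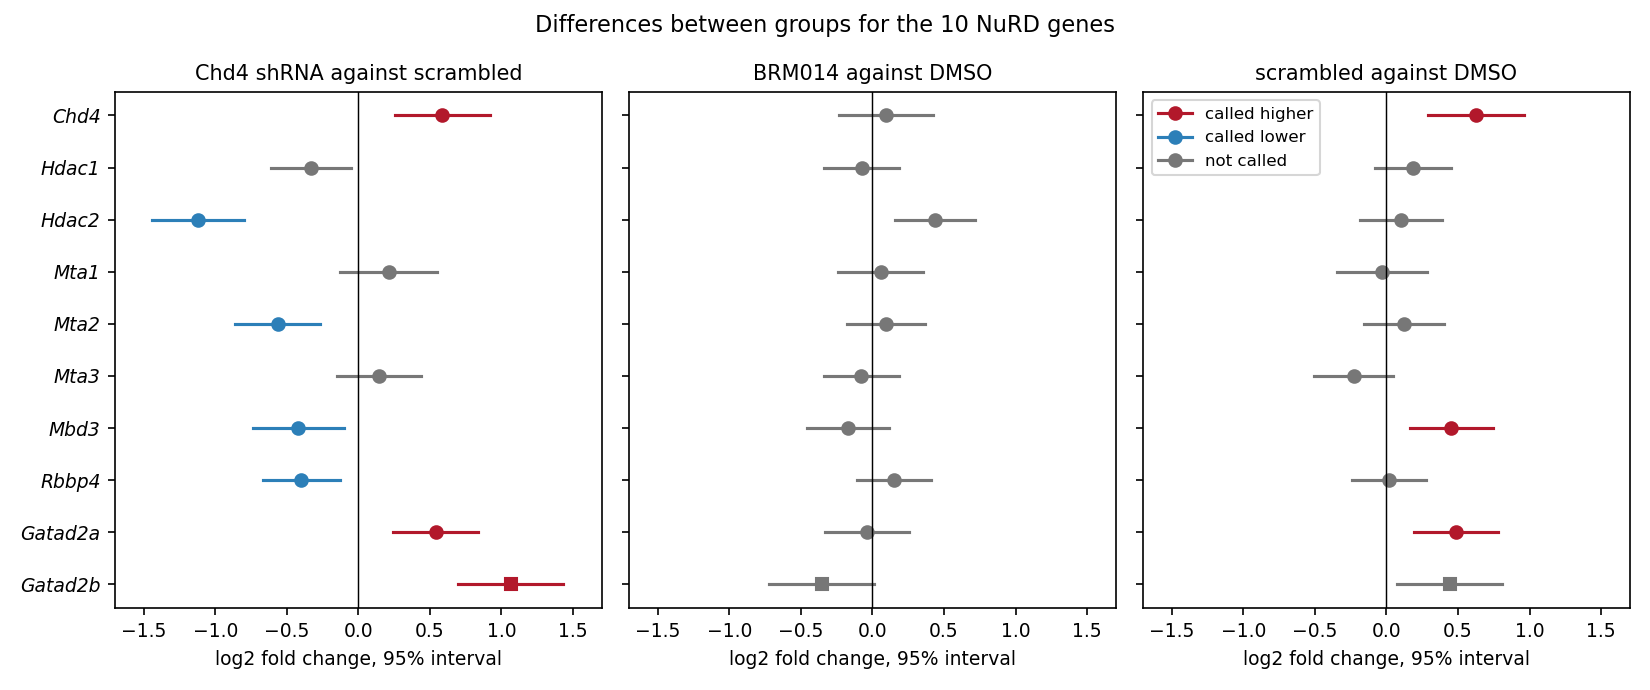
Log2 fold change (points) with its 95% interval (lines) for the 10 genes in 3 comparisons from edgeR. Gatad2b (square) comes from the fit of genes at least 3-fold above background. Hdac2 at -1.12 and Gatad2b at 1.07 mark the ends against the scrambled shRNA, and no member is called with BRM014.

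With BRM014, 0 of the 9 expressed members were called higher and 0 lower by edgeR. Of all expressed genes 2.46% were higher and 4.69% lower, so 0 of 9 is near the background. At an unadjusted p under 0.05 there were 1 higher (Hdac2) and 0 lower, and DESeq2 also called 0 in each direction. For that threshold and for DESeq2 the shares of all genes are not given here. Chd4 had levels of 7.68 and 6.34 with BRM014 and of 5.60 and 7.50 with DMSO, which overlap. Its log2 fold change was 0.09, with a 95% interval from -0.24 to 0.42. That interval overlaps the one of the change against the scrambled shRNA (0.59, 95% interval 0.25 to 0.92). The difference between both effects was not called for Chd4 (edgeR adjusted p = 0.10). For the 8 expressed members other than Hdac2, log2 fold changes ran from -0.17 (Mbd3) to 0.15 (Rbbp4). Gatad2b was at -0.35 (edgeR adjusted p = 0.27).

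Hdac2 had 928 and 1222 counts with BRM014 and 760 and 1031 with DMSO. Its levels were 16.5 and 15.4 against 10.5 and 13.1, so both BRM014 libraries were above both DMSO libraries. The log2 fold change was 0.44 ± 0.14 (SE, 95% interval 0.16 to 0.72) and narrowly missed the threshold (edgeR adjusted p = 0.0547). The value rested partly on the DMSO libraries: it was 0.61 without DMSO r2 (edgeR adjusted p = 0.0023) and 0.29 without DMSO r1 (adjusted p = 0.23). It was not called without BRM014 r1 (edgeR adjusted p = 0.26), without BRM014 r2 (adjusted p = 0.15), by DESeq2 (adjusted p = 0.082) or on either ERCC scale, and was called in the 3 edgeR fits with more genes (0.47 to 0.51, adjusted p from 0.026 to 0.043).

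The difference between both effects, the Chd4 shRNA effect minus the BRM014 effect, was tested within the same fit. It was called for 4 of 9 members, 1 higher (Gatad2a) and 3 lower (Hdac2, Mta2 and Rbbp4), against 16.4% higher and 14.5% lower of all expressed genes. Hdac2 had the largest difference, -1.56 ± 0.21 (SE, edgeR adjusted p = 1.49e-05), and it kept this call without each of the 8 libraries in turn but lost it on both ERCC scales (-1.46 after TMM, -0.94 with plain sums). Mta2 was at -0.66 ± 0.19 (edgeR adjusted p = 0.0135), Rbbp4 at -0.55 ± 0.18 (edgeR adjusted p = 0.0233) and Gatad2a at 0.58 ± 0.20 (edgeR adjusted p = 0.0328). Each of these 3 lost its call without at least 2 of the libraries. Gatad2b was at 1.42 ± 0.25 (edgeR adjusted p = 6.5e-05), where 37.1% of 15464 genes were called higher. For Chd4 the difference of 0.49 ± 0.23 did not pass (edgeR adjusted p = 0.10). The perturbations also differ in kind, in length and in infection and selection, which cannot be told apart in this test.

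The scrambled and DMSO libraries, the controls of each perturbation, were compared as well. They differ in lentiviral infection, puromycin and time in culture. Of the 9 members 3 were higher with the scrambled shRNA (Chd4, Gatad2a and Mbd3) and 0 were lower by edgeR, against 6.86% and 6.24% of all expressed genes. At an unadjusted p under 0.05 there were 0 lower, and DESeq2 called 2 higher and 0 lower. The shares of all genes at that threshold and with DESeq2 are not given here. Chd4 was at 11.5 and 8.70 with the scrambled shRNA and 5.60 and 7.50 with DMSO, a log2 fold change of 0.63 ± 0.16 (edgeR adjusted p = 0.0135). Gatad2a was at 12.8 and 11.5 against 7.69 and 9.63 (0.49 ± 0.14, edgeR adjusted p = 0.027). Mbd3 was at 15.1 and 13.5 against 9.65 and 11.2 (0.45 ± 0.14, edgeR adjusted p = 0.0344). All 3 calls were lost without DMSO r1 and without scrambled r1. Chd4 was therefore lowest with DMSO and BRM014, higher with the scrambled shRNA and highest in the libraries labelled Chd4 shRNA, in that order of group means (6.55, 7.01, 10.1 and 15.2), with overlap between DMSO and BRM014. This comparison shares the scrambled libraries with the one above, so the changes are not independent of each other.

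Shares among paralogs do not depend on how libraries are scaled. Each is the percentage of a gene in the summed counts per kb of its family. Hdac2 made up 24.6% and 28.8% of Hdac1 plus Hdac2 under the Chd4 shRNA label, 37.0% and 40.4% under the scrambled one, 39.0% and 41.1% with DMSO and 49.2% and 48.5% with BRM014. The labelled and the BRM014 libraries thus lay on opposite sides of their controls with no overlap. The differences of means were -12 and 8.82 percentage points, each with an exact two-sided permutation p = 0.33, the smallest that 2 libraries against 2 allow. Mta2 made up 39.0% and 39.3% of the 3 Mta genes under the Chd4 shRNA label against 49.8% and 54.2% with the scrambled shRNA, and 46.7% to 49.6% in the 4 BRM014 and DMSO libraries. The Mta2 share was again outside the range of the other 6 libraries.

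Chd4 made up 65.3% and 62.4% of Chd3, Chd4 and Chd5 under the Chd4 shRNA label, against 87.6% and 88.2% in the scrambled libraries. The exact permutation p was again 0.33. Chd3 and Chd5, ATPases that can replace CHD4, lay only 4.55-fold and 3.52-fold above background, outside the expressed set. Background made up 27.3% and 24.5% of the Chd3 counts of 210 and 248 in the labelled libraries. With background subtracted, the share of Chd4 was 70.7% and 67.2% against 89.6% and 91.9%. The share of Chd4 was lower while its own level was higher. Among the 15464 genes at least 3-fold above background, to which Chd3 and Chd5 belong, 43.7% were called higher in these libraries. Gatad2a made up 76.8% of both Gatad2 genes in the labelled libraries and 82.9% in the scrambled ones. With background subtracted it was 80.0% and 79.4% against 80.3% and 87.2%. Mbd3 made up 79.1% of Mbd3 plus Mbd2 against 86.0% (SD 4.85 and 2.30, n = 2), and with background subtracted 89.6% and 80.7% against 85.0% and 88.7%, which overlap. Rbbp4 made up 33.2% and 31.5% of Rbbp4 plus Rbbp7 (means of 2), with overlap between the groups.

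**Figure D3:**
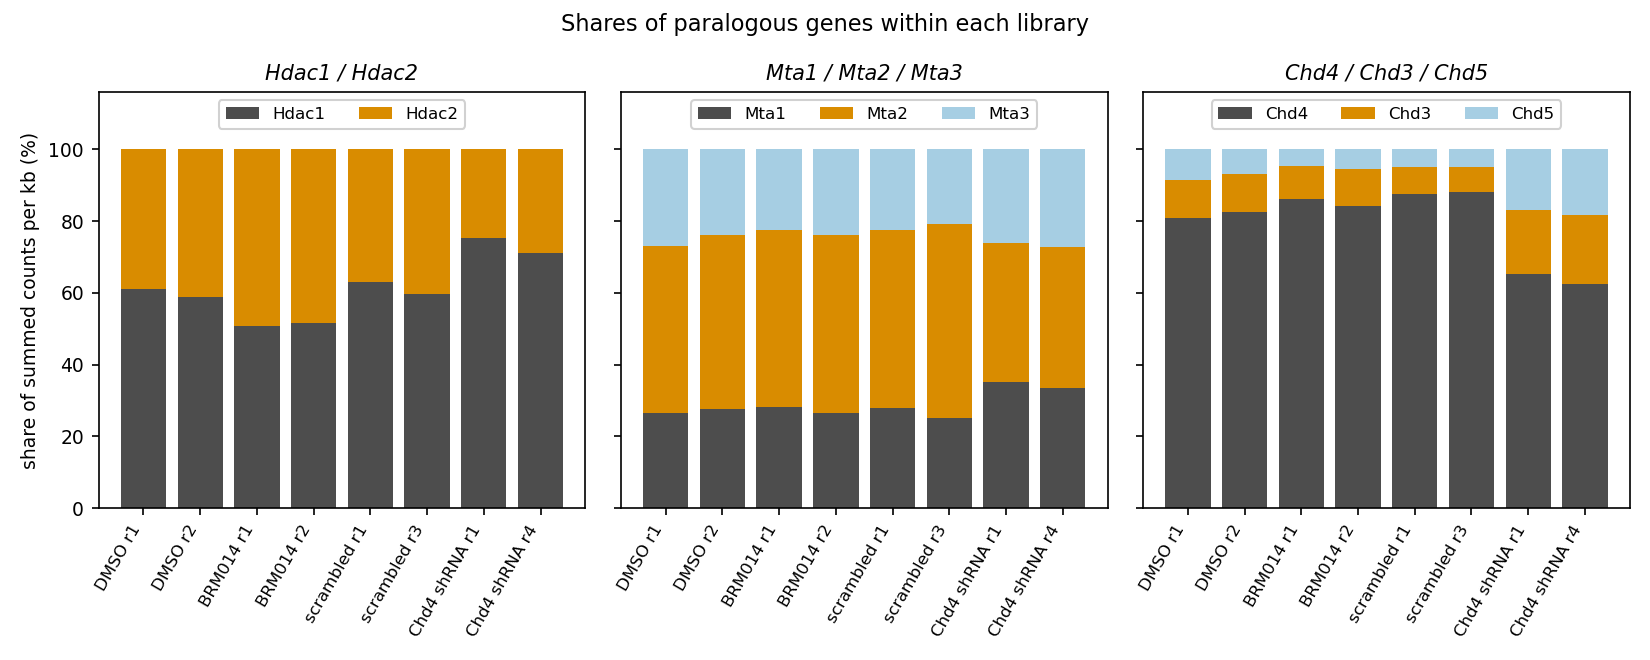
Share of each paralog (%) in the summed counts per kb of its family in every library, as stacked bars. Hdac2 takes 24.6% and 28.8% in the libraries labelled Chd4 shRNA and 49.2% and 48.5% with BRM014, and the share of Chd4 is lowest in the libraries labelled Chd4 shRNA (65.3% and 62.4%).

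Over the 8 libraries Nup153, a nuclear pore gene, Pdcd11, a gene of ribosome assembly, and Sptbn1, a spectrin gene, had the log2 levels most like that of Chd4 among the other 8016 expressed genes (Pearson r 0.996, 0.995 and 0.994). Gatad2a ranked 29th, with r of 0.987, the nearest of the members. Hdac2 and Rbbp4 had r of -0.76 and -0.77 with Chd4 and of 0.96 with each other, and Mta2 had r of 0.93 with Hdac2. These correlations describe 8 libraries in 4 groups that also differ in depth and background, and they carry no test.

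Other genes around NuRD and of sister deacetylase complexes were read from the same fit. The counts under the Chd4 shRNA label stand beside 20.4% higher and 20.2% lower of all expressed genes. Where ERCC totals after TMM set the scale none of the named genes was called. With the library sizes given above for that scale, this does not show that the genes were unchanged. Of the further NuRD genes, Chd3, Chd5 and Mbd2 were below the expressed set, Rbbp7 fell by 0.51 on the log2 scale in the libraries labelled Chd4 shRNA (SE 0.14, edgeR adjusted p = 0.0068) and Cdk2ap1 was at 0.02. Of 7 expressed factors known to bind NuRD, 3 were higher there and 2 were lower. Zfp296, a zinc finger protein of pluripotent cells, fell by 1.42 (SE 0.21, edgeR adjusted p = 2.61e-05), Zfp219 fell by 0.58 and Zfp687 was higher by 0.58. With plain ERCC sums Rbbp7 was at 0.11 and Zfp219 at 0.01. Without Chd4 shRNA r1 Rbbp7 (edgeR adjusted p = 0.12) and Zfp687 (adjusted p = 0.067) lost their calls, and Zfp687 did so among genes at least 3-fold above background (0.21). Background made up 46.0% and 61.2% of the Zfp296 counts of 30 and 24 in the labelled libraries. With BRM014, Zfp296 fell by 1.61 (SE 0.18, edgeR adjusted p = 5.17e-06), from 132 and 168 counts with DMSO to 32 and 56. It was the 1 of these 7 factors called with BRM014, against 2.46% higher and 4.69% lower of all expressed genes. The difference between both effects was not called for Zfp296 (0.19 ± 0.28). With background subtracted Zfp296 was at -2.26 in the labelled libraries, at -1.69 with BRM014 and at -0.57 for the difference (edgeR adjusted p = 0.25).

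ChAHP, in which CHD4 joins ADNP and HP1 proteins, had 2 of 5 genes higher and 0 lower by edgeR under the Chd4 shRNA label. At an unadjusted p under 0.05 there was 1 lower, Cbx3 (-0.30 ± 0.14, edgeR adjusted p = 0.089). The share of all genes at that threshold is not given here. The 2 higher genes were Adnp (0.86 ± 0.16, edgeR adjusted p = 0.000275) and Cbx5 (0.46 ± 0.14, edgeR adjusted p = 0.0145). Cbx5 lost its call without Chd4 shRNA r4 (edgeR adjusted p = 0.16), without scrambled r3 (adjusted p = 0.17) and among genes at least 3-fold above background (0.09). The SIN3 complex, which shares Hdac1, Hdac2 and Rbbp4 with NuRD, had 4 higher and 1 lower of its 10 other expressed genes. The 1 lower was Sap30, at levels of 17.7 and 14.1 against 33.3 and 36.4, and it fell by 1.13 (SE 0.15, edgeR adjusted p = 1.12e-05). Phf12 at 0.80 and Sap130 at 0.76 were the 2 of the 4 higher genes with the smallest p. With BRM014, Sap30 was higher by 0.69 ± 0.13 (edgeR adjusted p = 0.00141), at levels of 56.9 and 55.8 against 35.8 and 34.2. The difference between both effects at Sap30 was -1.82 ± 0.20 (edgeR adjusted p = 1.76e-06), in the direction of that at Hdac2. With plain ERCC sums Sap30 was not called in either comparison (-0.58, edgeR adjusted p = 0.17, and 0.70, adjusted p = 0.68).

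Other complexes that hold these deacetylases were read under the Chd4 shRNA label. CoREST had 1 higher and 0 lower (Kdm1a, 0.39) of 3 expressed genes, from 10 listed. The MIER and MiDAC genes had 1 higher and 0 lower (Elmsan1, 1.04) of 3 expressed genes, from 7 listed. Kdm1a is also 1 of the 3 higher factors known to bind NuRD, so it is counted in both lists. Kdm1a lost its call when scrambled r3 (edgeR adjusted p = 0.21), Chd4 shRNA r1 (0.075) or Chd4 shRNA r4 (0.18) was left out, and among genes at least 3-fold above background (0.016). Each 0 was also 0 at an unadjusted p under 0.05, a threshold for which the share of all genes is not given here. Adnp, Cbx5, Phf12, Sap130, Kdm1a, Elmsan1 and Zfp687 all turned to lower when scaled by all tested genes.

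**Figure D4:**
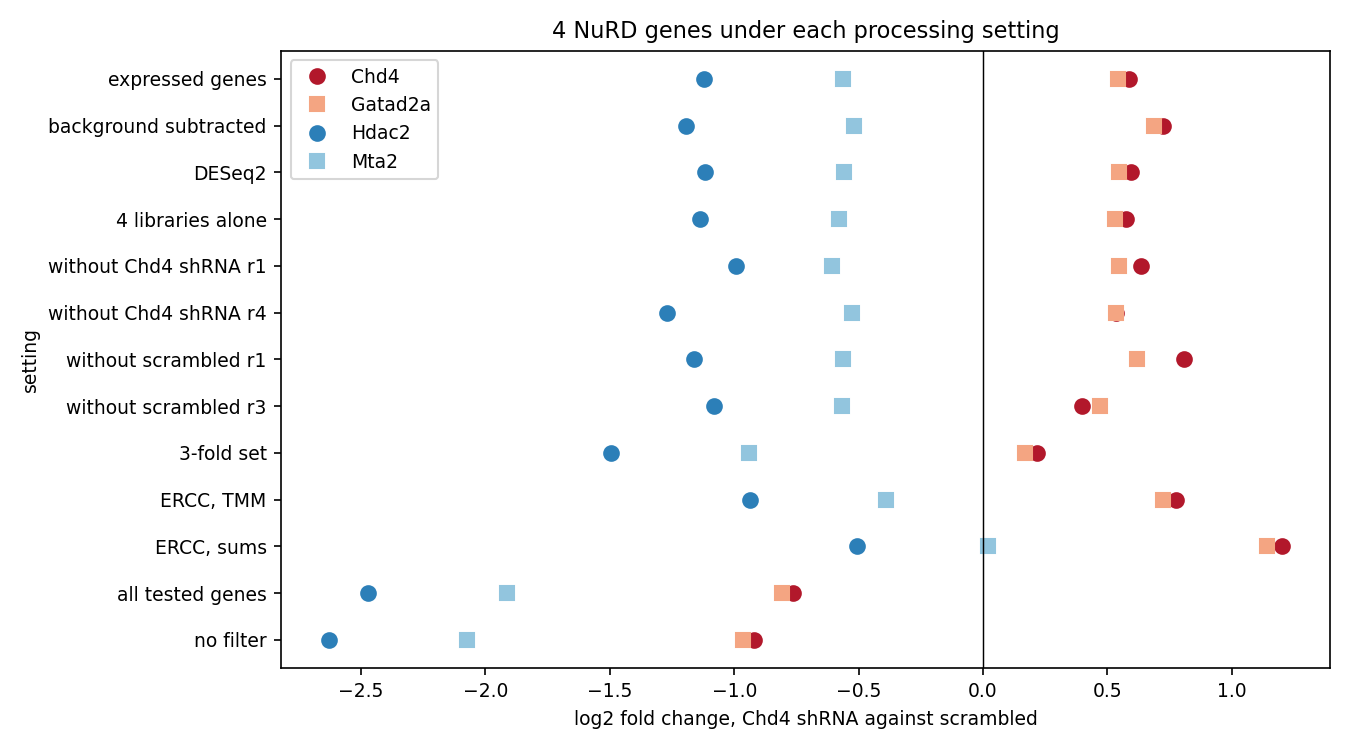
Log2 fold change of Chd4, Gatad2a, Hdac2 and Mta2 in the libraries labelled Chd4 shRNA against the scrambled ones (x axis) under 13 processing settings (rows). Chd4 and Gatad2a move from 0.59 and 0.54 to -0.76 and -0.81 when scaled by all tested genes, and Hdac2 is below 0 in every row.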

How the data were processed

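Nascent RNA of 8 libraries was analysed. The 40 chromatin samples were not analysed here. The authors deposited counts, 1 per gene of mm10 and library. The submitters' processing notes name Trim Galore 0.6.4, STAR 2.7.1a, featureCounts and edgeR 3.32.1, while strand and multiple alignments are not given in the sources used here. Groups came from the labels, and columns r3 and r4 were placed by group name.

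A single fit took all 8 libraries, with edgeR 4.0.16 (R 4.3.3, quasi-likelihood F test, group means) on 8017 genes that passed its low-count filter (35426 genes) with a mean count at least 10-fold above background, with TMM scaling. Background was taken over 5330 kb of receptor gene exon. A call is a Benjamini-Hochberg adjusted p under 0.05 over all genes of the fit. SEs came from the F statistic. No pseudocount entered the tests, and 0.5 was added for log2 levels in correlations. Gatad2b used a fit added after its level was seen. Depth is counting depth, and no molecular identifiers are given.

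Alternatives were DESeq2 1.42.0, both ERCC scales, other filters, background subtraction, the 4 libraries alone, a replicate block and each library left out. The members, lists and tests were chosen with earlier results of these data known. Named were all members, up to 3 genes of each list with the smallest p per comparison described, and the 3 genes most like Chd4. A further list is not reported here. Replicates of a group differed by more than sampling noise. The fits were tested on simulated data.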

Additional observations from a re-analysis of the deposited data

How the results depend on the processing

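Hdac2 and Mta2 stayed lower in the libraries labelled Chd4 shRNA, and called, under DESeq2, with background subtracted, in the fit of the 4 libraries alone and without each library. So did Gatad2b, higher. All 3 lost their calls with ERCC totals after TMM, and Hdac2 and Mta2 also with plain ERCC sums. Over the 10 members, direction and side of the threshold were kept in 79 of 120 alternative values against the scrambled shRNA, 121 of 139 with BRM014, 77 of 120 for scrambled against DMSO and 105 of 150 for the difference. A further 3, 13, 20 and 5 changed sign without being called in either fit. The precision is limited by 2 libraries a group and by counts as low as 126 (Mbd3, Chd4 shRNA r1). The cause of the changes below was not tested, apart from the shift of scale already given.

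Counts of members below are over the 9 expressed ones. The shares of all genes called under these other settings are not given here, so the counts are not read against a background. With ERCC totals after TMM as library sizes, 0 members were called higher and 0 lower against the scrambled shRNA, 0 higher for scrambled against DMSO, and 0 higher and 0 lower for the difference. With plain ERCC sums 0 were lower against the scrambled shRNA, 1 was higher for scrambled against DMSO, and 0 were lower for the difference. Log2 fold changes that turned were Mta2 (0.0195), Mbd3 (0.18), Rbbp4 (0.19), Zfp219 (0.0074) and Rbbp7 (0.11) against the scrambled shRNA and Rbbp4 (0.035) for the difference. Scaled by all tested genes or with no filter, 0 were higher and 9 lower against the scrambled shRNA, where Gatad2b was also called lower with no filter, and for the difference, 1 was higher with BRM014 (Hdac2) and 0 were higher for scrambled against DMSO.

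Against the scrambled shRNA, these genes turned when scaled by all tested genes and, second value, with no filter: Chd4 (-0.76, -0.92), Mta1 (-1.14, -1.30), Mta3 (-1.21, -1.36), Gatad2a (-0.81, -0.97), Gatad2b (-0.29, -0.44), Adnp (-0.49, -0.65), Cbx5 (-0.89, -1.05), Kdm1a (-0.96, -1.12), Elmsan1 (-0.31, -0.47), Zfp687 (-0.77, -0.92), Phf12 (-0.55, -0.71) and Sap130 (-0.59, -0.75). For the difference they were Chd4 (-0.93, -1.09), Mta1 (-1.27, -1.42), Mta3 (-1.20, -1.35), Gatad2a (-0.85, -1.0), Gatad2b (-0.0067, -0.16) and Zfp296 (-1.23, -1.39). Values that changed sign without being called in either fit are not counted as turned.

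Among genes at least 3-fold above background, 0 of the 9 were higher (Gatad2b, the tenth member, was at 0.70 and called) against the scrambled shRNA and 5 lower for the difference, with 0 higher, and 1 was higher with BRM014. With background subtracted 2 were higher for the difference. In the fit of the 4 libraries alone 1 was higher for scrambled against DMSO. Leaving out each library in turn gave 0 to 2 higher and 2 to 4 lower against the scrambled shRNA, 0 to 1 higher with BRM014, 0 to 3 higher for scrambled against DMSO, and 0 to 2 higher and 1 to 3 lower for the difference. With background subtracted, the difference in the share of Chd4 was -21.8 percentage points in place of -24.1, and that of Mbd3 was -1.71 in place of -6.88.

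Only BRM014 and DMSO share both replicate numbers. The same numbers did not deviate together (correlation -0.22), so they were not taken as pairs. With the replicate block 0 members were called higher and 0 lower with BRM014. With the crossed pairing, added after the data were seen, 1 was higher and 0 lower.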
